A study of Rattus norvegicus with 8 samples.

Results

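The 5 genes described here are common markers of microglia and macrophages: Tyrobp (ENSRNOG00000020845), Fcer1g (ENSRNOG00000024159), Aif1 (ENSRNOG00000000853), Lyz2 (ENSRNOG00000005825) and Cd68 (ENSRNOG00000037563). The rule takes them by identifier from the 32883 genes of the deposited table and sets no condition on their values, but the set was proposed with earlier results of these data known. The table holds identifiers without symbols and the reference used here gives no Ensembl identifier for any of its 47357 genes, so the pairing of these 5 identifiers with their symbols was taken as given and was not checked. Of the 5 genes, 4 were abundant enough to be tested and Cd68 was not. Aif1 was admitted to the test through its injured libraries.

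The series asked what a cut on one side of the thoracic cord does to gene expression in lower cord that was not itself cut. Lower lumbar spinal cord was taken from Sprague Dawley rats, an outbred strain, either uninjured (4 libraries) or 4 days after a hemisection at thoracic level 9 (4 libraries). The labels give no sham operation, age, sex or side of the cord, name no transgene or drug in either group, and do not say that each library is a separate animal, so p-values measure only the spread between these libraries. Libraries were made by CEL-Seq2, which counts tagged molecules from the 3' end of transcripts. A gene's count is therefore a number of molecules and was not divided by transcript length.

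Microglia are the resident macrophages of the spinal cord. They survey the tissue through receptors at the cell surface, and many of these receptors have no signalling part of their own and depend on small adaptor proteins in the membrane. After damage microglia change shape, divide and take up debris, and monocytes from blood can enter the tissue and become macrophages that carry many of the same markers. In whole tissue, more cells of a type and more RNA per cell cannot be told apart, and these 5 genes do not separate resident from blood-derived cells.

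Depth sets what can be seen for these genes. Libraries held 119808 to 405537 molecules, with the libraries numbered 3 the shallowest of each group at 119808 (uninjured) and 153060 (injured). A count of 3 corresponded to 7.20 to 34.8 CPM. CPM here is counts per 1e6 molecules of the tested genes, after TMM scaling between libraries. Across all 4159 tested genes, 41 (0.986%) were called higher and 0 (0%) lower after injury by edgeR's quasi-likelihood test with a Benjamini-Hochberg adjusted p under 0.05. Before that adjustment, 222 of the 4159 genes passed edgeR's test upward and 104 downward, with p under 0.05. Some genes pass such a threshold by chance, so the 104 are not read as genes that fell. After adjustment DESeq2 called 49 genes higher and 2 lower, and limma-voom 46 higher and 1 lower.

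At 4 days after injury 2 of the 5 markers rose, Tyrobp and Aif1, by 2.61-fold and 3.68-fold. Fcer1g, the most abundant of the set, had a fitted fold of 2.03 that did not pass the adjusted threshold, and Lyz2 had a fitted fold of 1.72 that did not pass either. None was lower. When replicate number was taken into account as a block, Fcer1g passed too, so that 3 of the 5 were called, beside 94 of 4159 genes (2.26%) called higher and 16 (0.385%) called lower in that fit.

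Tyrobp encodes DAP12, an adaptor that passes signals from receptors such as TREM2 into the cell. Its counts were 76, 58, 41 and 63 molecules in uninjured replicates 1 to 4 and 243, 278, 93 and 116 in injured replicates 1 to 4. As CPM these were 195, 256, 475 and 151 in uninjured and 671, 743, 725 and 489 in injured libraries. All 4 injured libraries lay above all uninjured ones, although injured replicate 4 at 489 stood close to uninjured replicate 3 at 475. Such a complete separation was found for 128 tested genes (3.08%) in this direction and for 74 (1.78%) in the opposite one. Mean CPM was 269 ± 144 without injury and 657 ± 116 after it (SD, n = 4 each). The fitted log2 fold change of 1.39 had a standard error of 0.30 and a 95% interval from 0.75 to 2.02 (edgeR adjusted p = 0.0268), and an exact two-sided permutation test of the CPM values gave p = 0.0286, the smallest that 70 splits allow. With the replicate block the log2 fold change was 1.45 (edgeR adjusted p = 0.000237). The call was lost in 6 of the 8 fits that left out 1 library, with edgeR adjusted p between 0.0778 and 0.150, and held without uninjured replicate 3 (0.00147) or without injured replicate 4 (0.0194).

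Fcer1g encodes the gamma chain shared by Fc receptors, an adaptor of the same kind as DAP12 that carries signals from receptors for antibody. It gave 214, 259, 160 and 301 molecules in uninjured replicates 1 to 4 and 648, 901, 271 and 514 in the injured ones. As CPM the uninjured libraries stood at 550, 1141, 1854 and 722 and the injured libraries at 1790, 2407, 2112 and 2168. The groups overlapped in CPM through a single library, uninjured replicate 3, which exceeded injured replicate 1. As a share of all molecules, without TMM scaling, they did not overlap: uninjured libraries ran from 0.0571% to 0.134% and injured libraries from 0.177% to 0.238%. How many of all tested genes separate on that scale was not counted, so no weight is put on this separation. Mean CPM was 1067 ± 580 without injury and 2119 ± 254 after it (SD, n = 4 each). The fitted log2 fold change of 1.02 had a standard error of 0.31 and a 95% interval from 0.36 to 1.68 (edgeR adjusted p = 0.234), and the exact two-sided permutation p was 0.0571. With the replicate block it was 1.16 (edgeR adjusted p = 0.00570), without uninjured replicate 3 it was 1.40 (edgeR adjusted p = 0.00871), and with total counts in place of TMM it was 1.11 (edgeR adjusted p = 0.0413).

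**Figure D1:**
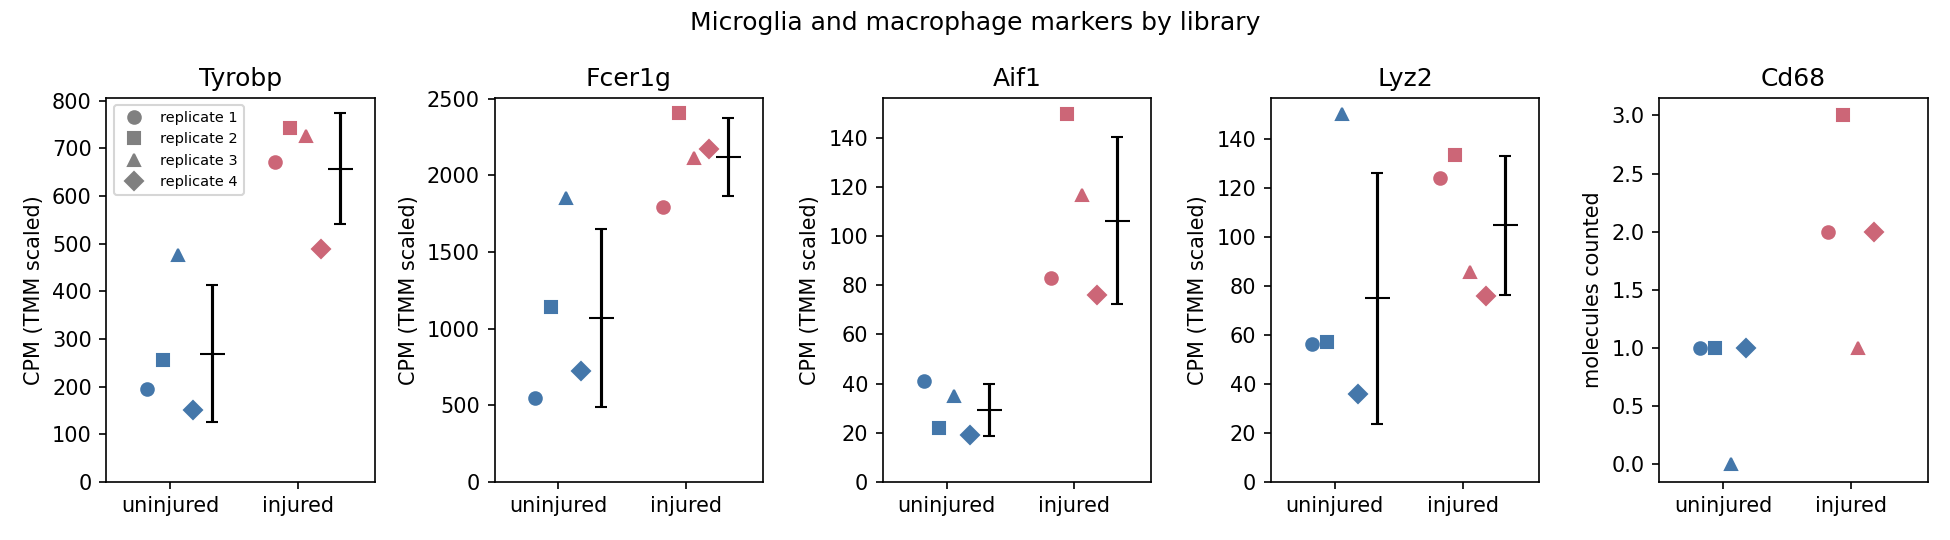
Values of the 5 marker genes in each library, as TMM-scaled CPM for the 4 tested genes and as molecules counted for Cd68, with 1 symbol per replicate number and the mean with SD (n = 4) as a black bar for the tested genes. Injured libraries lie above all uninjured libraries for Tyrobp and Aif1, while uninjured replicate 3 reaches into the injured range for Fcer1g (1854 CPM) and above it for Lyz2 (151 CPM).

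Aif1 encodes IBA1, a calcium-binding protein of the actin cytoskeleton that is the usual stain for microglia in tissue sections. It was scarce without injury, at 16, 5, 3 and 8 molecules in replicates 1 to 4, and injured replicates 1 to 4 gave 30, 56, 15 and 18. Uninjured replicates 2 to 4 lay below the filter's minimum count of 10 and all injured libraries above it. Aif1 therefore passed the filter through the group where it was higher, which limits what its test and rank can show. As CPM the uninjured libraries stood at 41.1, 22.0, 34.8 and 19.2 and the injured libraries at 82.9, 150, 117 and 75.9. Every injured library was above every uninjured one, but on few molecules: the highest uninjured library (16 molecules) and the lowest injured one (18 molecules) had overlapping exact 95% intervals as shares of all molecules, 0.00244% to 0.00694% and 0.00415% to 0.0111%. Mean CPM was 29.3 ± 10.4 without injury and 106 ± 34.0 after it (SD, n = 4 each). The fitted log2 fold change of 1.88 had a standard error of 0.36 and a 95% interval from 1.12 to 2.64 (edgeR adjusted p = 0.0105), the largest fitted change of the 4 tested markers, and the exact two-sided permutation p was 0.0286. With the replicate block it was 1.77 (edgeR adjusted p = 0.00307). The call held in 6 of the 8 fits that left out 1 library and was lost without injured replicate 2 (log2 fold change 1.62, edgeR adjusted p = 0.0580) and without uninjured replicate 4 (1.65, edgeR adjusted p = 0.0659).

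Lyz2 encodes lysozyme of myeloid cells, an enzyme that breaks down bacterial cell walls and is made by macrophages and by neutrophils. A neighbouring gene, listed in RefSeq as Lyc2, carries Lyz2 among its synonyms, and no source used here says whether the deposited counting could separate their reads. The counts were 22, 13, 13 and 15 molecules in uninjured replicates 1 to 4 and 45, 50, 11 and 18 in the injured ones. As CPM these were 56.5, 57.3, 151 and 36.0 in uninjured and 124, 134, 85.7 and 75.9 in injured libraries. Uninjured replicate 3 had the highest value of all 8 libraries, while the other 3 uninjured libraries lay below every injured one. Mean CPM was 75.1 ± 51.3 without injury and 105 ± 28.3 after it (SD, n = 4 each). The fitted log2 fold change of 0.78 had a standard error of 0.37 and a 95% interval from 0.01 to 1.55 (edgeR adjusted p = 0.626), and the exact two-sided permutation p was 0.286. Without uninjured replicate 3 the log2 fold change was 1.12 (edgeR adjusted p = 0.122), and with the replicate block it was 0.81 (edgeR adjusted p = 0.202).

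Cd68 encodes a membrane glycoprotein of lysosomes and endosomes and is widely used as a stain for phagocytic macrophages. Only 11 molecules of it were counted in the series. There were 1, 1, 0 and 1 in uninjured replicates 1 to 4 and 2, 3, 1 and 2 in the injured ones. Pooled over libraries this was 3 of 1138230 molecules against 8 of 1147956, a ratio of 2.64 with an exact 95% interval from 0.635 to 15.5 that covers counting error only. Cd68 was too scarce for the filter on low counts. With no such filter its log2 fold change was 1.29 with a 95% interval from -0.63 to 3.21 (edgeR adjusted p = 0.741), so a change in Cd68 was not detectable at this depth. The other 4 markers were found in all 8 libraries, and Cd68, a defining macrophage marker, in 7 of them with at most 3 molecules.

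**Figure D2:**
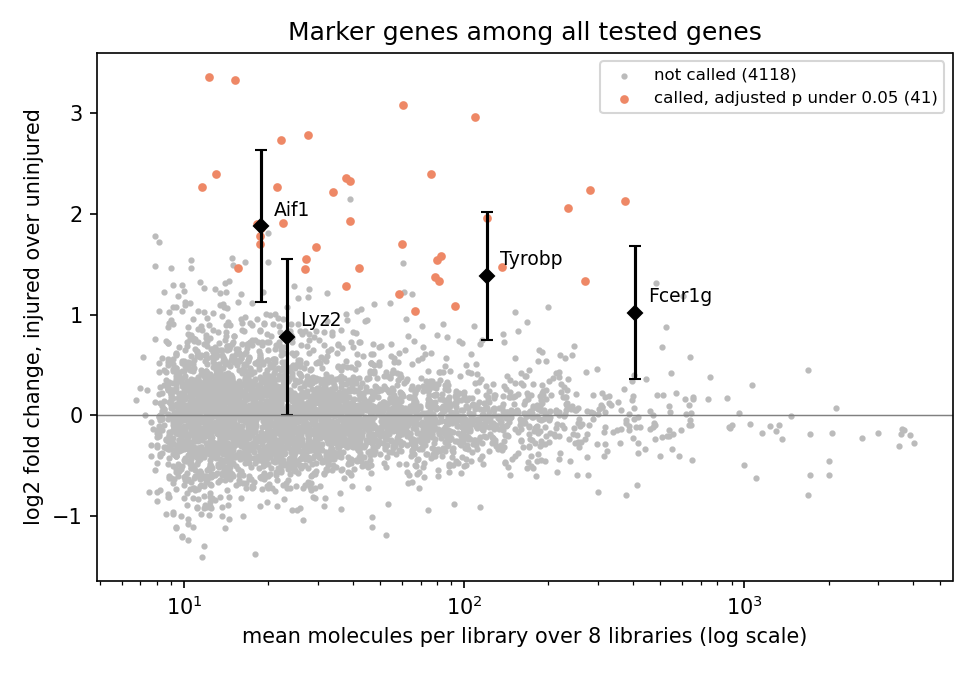
Log2 fold change (injured over uninjured) against mean molecules per library on a log axis for the 4159 tested genes, with the 41 called genes in orange and the 4 tested markers as black diamonds with 95% intervals. Aif1 and Tyrobp sit at 1.88 and 1.39, among the called genes, and Fcer1g lies lower at 1.02 at a higher abundance.

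Among the 4159 tested genes ranked from the largest rise downward, Aif1 stood at place 22, Tyrobp at 47, Fcer1g at 101 and Lyz2 at 181. Ranked by p, the places were 23 for Aif1, 36 for Tyrobp, 81 for Fcer1g and 317 for Lyz2. The median log2 fold change of all tested genes was -0.01.

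Deviations from group means correlated across genes by 0.17 to 0.45 for same-numbered libraries and by -0.39 to 0.24 for differently numbered ones. These ranges overlapped, yet each library correlated most highly with the same-numbered library of the other group. The labels do not say what the numbers mean. The ratio of injured to uninjured CPM within each number differed between the markers. For Tyrobp it was 3.44, 2.91, 1.53 and 3.24 for numbers 1 to 4. For Fcer1g it was 3.26, 2.11, 1.14 and 3.001, lowest for number 3 as in Tyrobp. For Aif1 it was 2.02, 6.79, 3.36 and 3.95, lowest for number 1. For Lyz2 it was 2.20, 2.33, 0.569 and 2.11, so number 3 alone pointed the other way. Of these 16 ratios 15 were above 1.

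**Figure D3:**
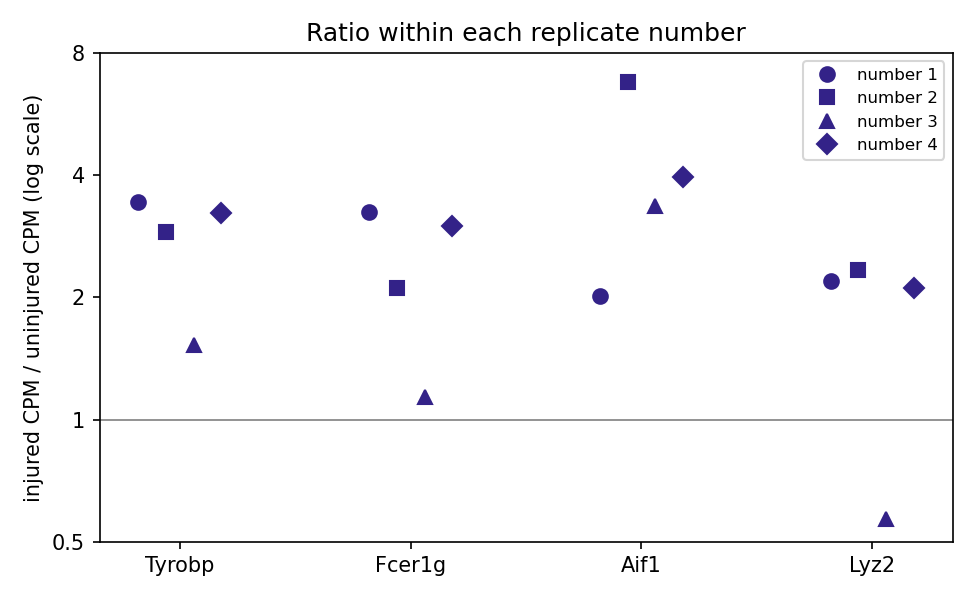
Ratio of injured to uninjured CPM on a log axis for each of the 4 tested markers, with 1 symbol per replicate number and a line at equal levels. Number 3 is the lowest for Tyrobp, Fcer1g and Lyz2, where it reaches 1.53, 1.14 and 0.569, and number 1 is the lowest for Aif1 at 2.02.

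Within numbers 1 and 2 alone, the log2 fold change was 1.67 for Tyrobp (edgeR adjusted p = 0.00109), 1.80 for Aif1 (edgeR adjusted p = 0.0380), 1.33 for Fcer1g (edgeR adjusted p = 0.0762) and 1.18 for Lyz2 (edgeR adjusted p = 0.0959). Within numbers 3 and 4 alone it was 1.07 for Tyrobp, 1.99 for Aif1, 0.75 for Fcer1g and 0.15 for Lyz2, and none passed, with edgeR adjusted p of 0.591 for Aif1 and 0.9995 for the other 3. Each of these fits set 2 libraries against 2. Without both libraries numbered 3, Tyrobp (1.68), Fcer1g (1.41) and Aif1 (1.89) passed and Lyz2 had a log2 fold change of 1.20 (edgeR adjusted p = 0.130).

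**Figure D4:**
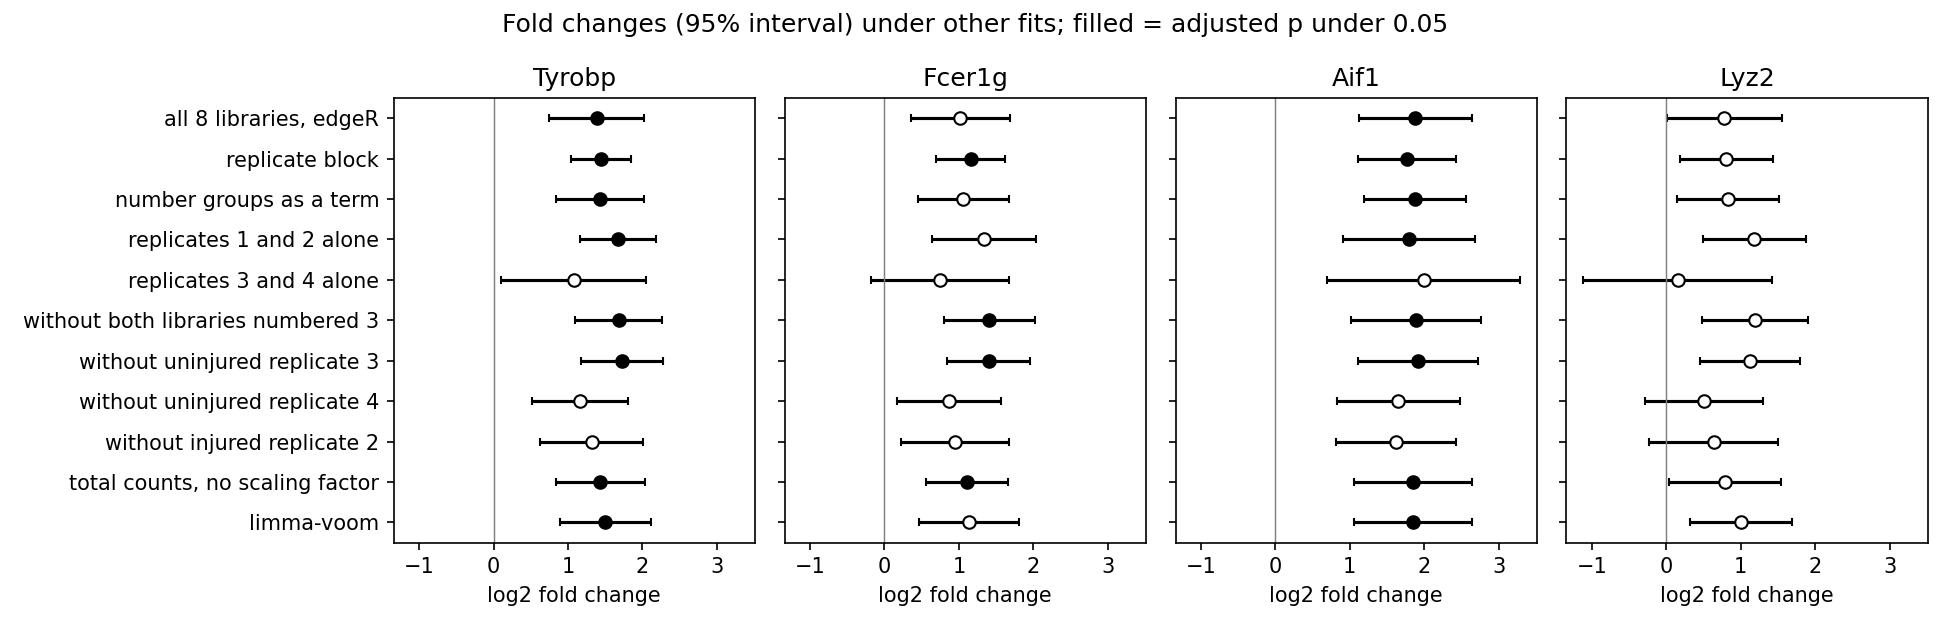
Log2 fold change with its 95% interval for the 4 tested markers (panels) in the fit of all 8 libraries and in 10 other fits (lines), filled where the adjusted p was under 0.05. Aif1 and Tyrobp are each filled in 8 of the 11 fits drawn, Fcer1g in 4 and Lyz2 in none. For Fcer1g these are the replicate block, total counts, without uninjured replicate 3 and without both libraries numbered 3. Not all 8 fits that left out 1 library are drawn, only those without uninjured replicate 3, uninjured replicate 4 or injured replicate 2. Over all 8 of them Tyrobp was called in 2 and Aif1 in 6.

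Uninjured replicate 3 held the highest CPM of the uninjured group for Tyrobp, Fcer1g and Lyz2. It was the shallowest library, and its TMM factor of 0.764 was the lowest of the 8 and raised its CPM values. No library was an outlier in its group by Dixon's test at the 95% level in any of the 10 sets of 4 values checked (the 4 tested markers and their summed CPM, in each group). As a share of all molecules it was also the highest uninjured library for these 3 genes, at 0.0342%, 0.134% and 0.0109%. For Fcer1g its exact 95% interval, 0.114% to 0.156%, overlapped that of uninjured replicate 2, 0.0959% to 0.123%. With all libraries thinned to 119808 molecules, the median log2 fold change over 10 draws was 1.29 for Tyrobp and 0.99 for Fcer1g, against 1.39 and 1.02 at full depth, and Tyrobp passed in 2 of the 10 draws. Lyz2 could be tested in only 2 draws, with a median of 0.33 against 0.78 at full depth. Aif1 was too scarce to be tested in any draw, so its call was not checked at equal depth.

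Ratios of molecules between markers do not depend on scaling between libraries, and no test was made on them. There were 3.15 to 4.46 molecules of Tyrobp per molecule of Lyz2 in uninjured libraries and 5.40 to 8.45 in injured libraries, the only one of the 6 ratios among the tested markers whose groups did not overlap. It rests on 11 to 50 Lyz2 molecules per library. Tyrobp per Fcer1g ran from 0.209 to 0.355 in uninjured and from 0.226 to 0.375 in injured libraries. Fcer1g per Aif1 ran from 13.4 to 53.3 in uninjured and from 16.1 to 28.6 in injured libraries, with few Aif1 molecules behind the widest values.

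Summed over the 5 genes, markers took 0.0878%, 0.141%, 0.181% and 0.0957% of all molecules in uninjured replicates 1 to 4 and 0.270%, 0.340%, 0.255% and 0.260% in injured replicates 1 to 4. The exact 95% binomial interval ran from 0.158% to 0.207% in uninjured replicate 3, the highest of its group, and from 0.231% to 0.282% in injured replicate 3, the lowest of its group. The mean share was 0.126% ± 0.0434 in uninjured and 0.281% ± 0.0397 in injured libraries (SD, n = 4 each). Fcer1g made up 65.0% to 77.6% of this sum in every library, so the sum mostly follows that gene.

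**Figure D5:**
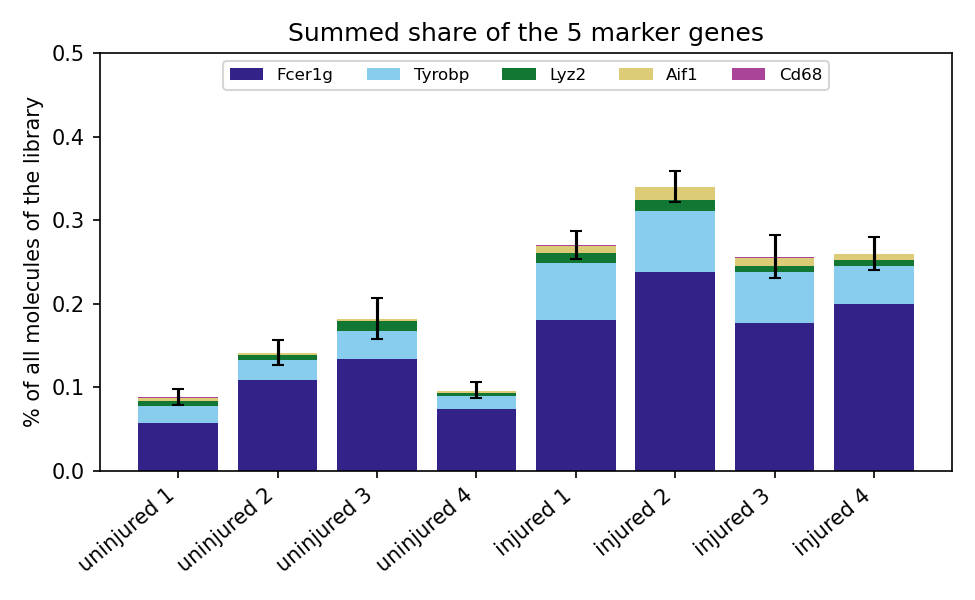
Share of all molecules (percent) held by the 5 marker genes in each library, stacked by gene, with exact 95% binomial intervals of the sum that cover counting error only. Every injured library is above every uninjured one, from 0.255% upward against at most 0.181%, and Fcer1g is the largest part of each bar.

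The genes most like the markers were sought by the Pearson correlation of log2 CPM over the 8 libraries with the mean of the 4 tested markers. The highest value was 0.98 for ENSRNOG00000002045, whose mean CPM was 160 ± 73.3 without injury and 428 ± 54.4 after it (SD, n = 4 each) and had a log2 fold change of 1.54 (edgeR adjusted p = 0.00610). The next was 0.97 for ENSRNOG00000002919, at 1459 ± 833 and 3270 ± 128 CPM (SD, n = 4 each) with a log2 fold change of 1.19 (edgeR adjusted p = 0.112). In both genes uninjured replicate 3 was the highest uninjured library, at 266 and 2677 CPM, as in Tyrobp, Fcer1g and Lyz2. Both were picked for following the markers over these same libraries, so their group difference and uninjured replicate 3 values are no separate finding. With group means removed the correlations were 0.94 and 0.91, and what they reflect was not tested. Neither identifier could be paired with a symbol here.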

How the data were processed

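The deposited values are counts of molecules per gene from CEL-Seq2 libraries, whole numbers with no normalization, 1 column per library. Per the submitters' processing notes, the build was Rnor_6.0 and the tools were HISAT2 2.0.4 and HTSeq 0.6.0; no source used here gives the collapsing of identifiers or the annotation release. Top counts per library were 3989 to 4080, close to the 4096 identifiers that 6 bases allow. The highest marker count was 901, for Fcer1g in injured replicate 2. With counts corrected for molecules that share an identifier, the log2 fold change of Fcer1g was 1.09 (edgeR adjusted p = 0.182), against 1.02 uncorrected. No marker's call changed.

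Genes were kept with filterByExpr (minimum count 10, minimum total 15), leaving 4159. The main test was edgeR 4.0.16 (R 4.3.3), TMM factors, robust quasi-likelihood fit, two-sided, Benjamini-Hochberg over all tested genes, threshold 0.05, without replicate numbers. Standard errors are the fitted log2 fold change over the root of F. DESeq2 1.42.0 and limma-voom (limma 3.58.1), other scalings and filters, and leaving out each library were alternatives. The test was checked on simulated counts with the same spread for all genes and with independent libraries. That check does not cover spread that differs between genes or a link between same-numbered libraries. Intervals for shares are exact (Clopper-Pearson). Plots used matplotlib 3.10.9.

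The titles number libraries 1 to 4 in both groups without saying why. Deviations from group means correlated across genes by 0.39, 0.36, 0.17 and 0.45 for the 4 same-numbered pairs and by -0.39 to 0.24 for differently numbered ones. Of the latter, uninjured 1 with injured 2 (0.24) and uninjured 2 with injured 1 (0.17) exceeded the lowest same-numbered value. All 4 same-numbered values were over 0.1, but so were these and uninjured 3 with injured 4 (0.16). Each library's highest correlation with the other group was to its own number, narrowly for uninjured 3 (0.168, against 0.157 with injured 4). With the labels silent, pairing is not established. The common dispersion, edgeR's estimate of the spread shared by all genes, was 0.0684 in the main fit and 0.0254 with the replicate block. The main fit left the numbers out. Block values, which treat the numbers as pairs from the data and not from a stated design, are given beside it. Named genes are the 5 markers and the 2 genes most alike by correlation. Lists of other cell type and pathway genes were fixed by symbol and could not be matched to identifiers, so they were not analysed here. The markers and lists were chosen with earlier results of these data known.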

Additional observations from a re-analysis of the deposited data

How the results depend on the processing

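No tested marker changed direction under any alternative: the log2 fold change ran from 1.07 to 1.72 for Tyrobp and 0.75 to 1.45 for Fcer1g (24 alternatives each), from 1.62 to 2.22 for Aif1 (22) and from 0.15 to 1.20 for Lyz2 (23). The number of markers called higher was 2 in the main fit. It was 0 in replicates 3 and 4 alone and in the median of 10 draws thinned to 119808 molecules, where 2 markers could be tested, 1 with the stricter filter, where 2 could be tested, and 4 without both libraries numbered 3 with the replicate block. Leaving out 1 library gave 0 to 3. The count of called genes was 41 of 4159 tested. It was 98 of 12968 with no filter on low counts and 110 of 4159 with the replicate block. With numbers 1 and 2 against 3 and 4 as a term it was 72 of 4159. In replicates 1 and 2 alone it was 86 of 4768, and in replicates 3 and 4 alone 3 of 3226. Without both libraries numbered 3 it was 62 of 4660, and 383 of 4660 with the replicate block as well. Thinned, the median was 20 called and 2162 tested. The fits that left out 1 library called 23 to 77, with 3926 to 4705 genes tested. Since the numbers tested differ, the counts alone cannot be compared across filters and sets of libraries. The cause of these moves was not tested.

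Tyrobp lost its call in replicates 3 and 4 alone (1.07) and when thinned (1.29, called in 2 of 10 draws). Leaving out 1 library it ranged from 1.16 to 1.72 and was called in 2 of 8 fits. Aif1 lost its call in replicates 3 and 4 alone (1.99). Leaving out 1 library it ranged from 1.62 to 2.22 and was called in 6 of 8 fits. Fcer1g gained a call with total counts (1.11), no filter (1.06), the replicate block (1.16), without both libraries numbered 3 (1.41), and with these left out and the replicate block (1.45), and ranged from 0.79 to 1.40 leaving out 1 library. Lyz2 gained one only without both libraries numbered 3 with the replicate block (1.14), and ranged from 0.50 to 1.12 leaving out 1 library. Replicate numbers 1 and 2 against 3 and 4 as a term changed no marker's call. The summed CPM of the 4 tested markers differed by 1.19 on the log2 scale, the share of all 5 by 1.21, and the summed CPM by 0.98 to 1.503 leaving out 1 library. With group means removed, the 2 most alike genes, ENSRNOG00000002045 and ENSRNOG00000002919, correlated at 0.94 and 0.91 and took places 9 and 24. By Spearman's rank they correlated at 0.90 and 0.86 and took places 12 and 31. Cd68 could be tested only with no filter on low counts and was not called there.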
